A study of Mus musculus with 6 samples.

Results

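Cathepsins are proteases that mature in the lysosome, and cystatins are small proteins that block the cysteine cathepsins. The 10 genes described here are 8 cathepsins (Ctsa, Ctsb, Ctsc, Ctsd, Ctsk, Ctsl, Ctss and Ctsz) and 2 cystatins (Cst3 and Cstb), found by their symbols among 18749 gene rows. RNA of aortas was sequenced from Apoe-/- mice, which lack apolipoprotein E. The mice had received Apoe-/- bone marrow (control recipients, 3 libraries) or Apoe-/-Sept2C111A bone marrow (Sept2C111A recipients, 3 libraries), and all had been infused with angiotensin II (Ang II) for 28 days. All 6 libraries thus share the Apoe deficiency and the Ang II infusion, and no library comes from an aorta without them. Sept2C111A is by its name an exchange of a cysteine for an alanine in septin-2, a cytoskeletal GTPase, and the series title links it to nitrosylation of septin-2 in macrophages. A marrow graft changes the blood-forming cells, while smooth muscle, endothelial and fibroblast cells of the wall remain those of the Apoe-/- host. The sources used here give no age, sex, strain, share of donor cells or segment of aorta, and do not say whether a library is 1 mouse or a pool.

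Most cathepsins are made as inactive precursors, carried to the lysosome by receptors for mannose 6-phosphate, and activated there at acid pH. Macrophages, osteoclasts and activated smooth muscle cells can also release them, and several, cathepsins S, K and L among them, cut elastin or collagen, which ties the family to aneurysm. Cystatin C, the product of Cst3, is secreted and inhibits these enzymes outside cells, whereas cystatin B, the product of Cstb, acts mainly inside cells. Ctsd encodes an aspartic protease and Ctsa a serine carboxypeptidase, which cystatins do not block.

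Library totals ran from 17082719 to 20494928 expected counts, and levels are given as CPM, counts relative to the scaled total of the library. All 10 members were counted in every library and all passed the filter on low counts, with mean counts from 1352 for Cstb to 39008 for Ctsb. Replicate libraries differed far beyond sampling noise. The smooth muscle gene Acta2 was abundant in each library, from 2610 CPM in control 3 to 9173 CPM in Sept2C111A library 2. The libraries were not alike in other cell types. In summed CPM of fixed marker lists, neutrophil genes stood at 2918, 89.7 and 334 in controls 1, 2 and 3 and between 16.9 and 28.8 in Sept2C111A recipients, and adventitial fibroblast genes reached 47601 in control 3 against 14078 to 25036 elsewhere, through Col1a1 and Col3a1. Without these 2 collagens the other 8 fibroblast genes summed to 3856, 4424 and 4106 CPM in the controls and to 7181, 6295 and 8368 CPM in the Sept2C111A libraries. Controls 1 and 3 lay farthest from the other 4 libraries in a principal component analysis.

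Across the family, 7 of 8 cathepsins had a lower mean in Sept2C111A recipients, Cstb was lower and Cst3 was higher, but no member passed edgeR's quasi-likelihood test after Benjamini-Hochberg adjustment over 14466 genes. The same test called 0% of all genes (smallest adjusted p 0.316), with 2170 of 14466 at an unadjusted p under 0.05. At an unadjusted p under 0.05 edgeR gave Ctsd and Cstb as lower and Cst3 as higher, where 8.83% of all genes were lower and 6.17% higher at that level. DESeq2, another count model, called Ctsd and Cstb lower at adjusted p under 0.05 and no member higher, beside 2.89% of all genes called lower and 0.985% called higher. The 3 libraries of a group lay wholly apart for the same 3 members, 2 lower and 1 higher, where this held for 11.9% (lower) and 11.2% (higher) of all genes. The median log2 fold change of the 10 members was -0.45, against 0.00 for all genes tested, and without control 3 it was -0.04. In whole tissue, fewer cells of a type and less RNA per cell cannot be told apart.

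**Figure D1:**
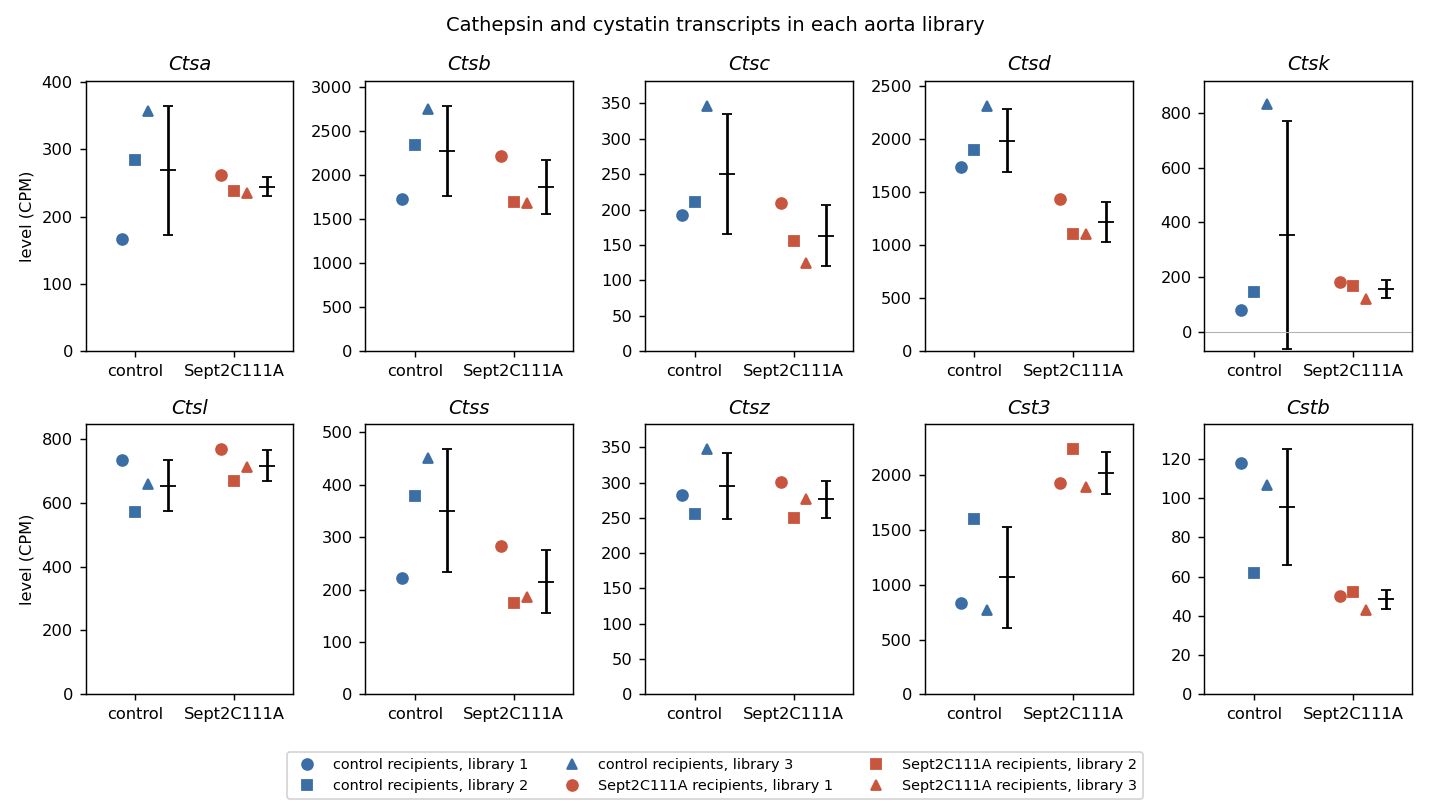
Level of each member in CPM (linear axes) in the 6 aorta libraries, with the group mean and SD (n = 3) as a black bar to the right of the points. Only in the panels for Ctsd, Cst3 and Cstb do the points of the groups not overlap, and in the Ctsk panel control 3 stands alone at 834 CPM.

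The inhibitors differed in opposite directions. Cst3 (chromosome 2, 148871722 to 148875692, minus strand, mm10, protein-coding) stood at 830.5, 1595 and 774 CPM in controls 1, 2 and 3 and at 1923, 2236 and 1888 CPM in the Sept2C111A libraries. Every Sept2C111A library was above every control, while control 2 lay nearer to them than to the other 2 controls. The means were 1066 ± 459 and 2016 ± 192 CPM (SD, n = 3 each), a 1.89-fold difference. Its log2 fold change was 0.92 (SE 0.35, 95% interval 0.08 to 1.76), with an edgeR adjusted p of 0.322 and a DESeq2 adjusted p of 0.0963. DESeq2 called it in 1 of 6 fits that left out a library, the one without control 2, where its log2 fold change was 1.33. Of the 10 fibroblast genes 8 had a higher mean in Sept2C111A recipients, and 6 had groups apart, beside 11.2% of all genes. DESeq2 called 4 of them higher, beside 0.985% of all genes, namely Dcn, Cd34, Dpt and Clec3b, with log2 fold changes of 1.09, 0.82, 0.89 and 1.68. All 10 smooth muscle genes and all 8 adipocyte genes were higher too, with median log2 fold changes of 0.62 and 1.09 against 0.57 for the fibroblast genes. Groups lay apart for 2 of the smooth muscle genes and 0 of the adipocyte genes, and DESeq2 called 0 in either list. The part of these cell types in the Cst3 difference was not tested.

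Cstb (chromosome 10, 78425669 to 78427622, plus strand) stood at 118, 61.7 and 107 CPM in the controls and at 50.2, 52.2 and 42.8 CPM in the Sept2C111A libraries. The groups did not overlap, and control 2 was again the control closest to the Sept2C111A libraries. The means were 95.4 ± 29.7 and 48.4 ± 4.93 CPM (SD, n = 3 each), 1.97-fold higher in controls, and the log2 fold change was -0.98 (SE 0.25, 95% interval -1.59 to -0.37). The edgeR adjusted p was 0.316 and the DESeq2 adjusted p was 0.0316, a call that DESeq2 kept in 1 of 6 fits with a library left out. Cstb was highest in control 1, the library with the most neutrophil signal. Of the 7 tested neutrophil genes, S100a8, S100a9, Csf3r and Cxcr2 were lower in Sept2C111A recipients with groups apart, as were 11.9% of all genes. Retnlg, Mmp8 and Ltf did the same, but passed the filter on low counts through the controls alone, which fixed their direction. Ly6g, a defining neutrophil gene, was at 0 in all 3 Sept2C111A libraries and in control 2. With a mean count of 5.67 it did not pass that filter. Camp, Ngp, Elane and Mpo did not pass it either, and each was detected in some Sept2C111A library. The part of neutrophils in the Cstb difference was not tested.

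The ratio of the inhibitors does not depend on how libraries are scaled. There were 7.06, 25.8 and 7.25 reads of Cst3 for each read of Cstb in controls 1, 2 and 3, and 38.3, 42.8 and 44.1 in the Sept2C111A libraries. Sept2C111A libraries were close to each other and controls 1 and 3 far below them. As Cst3 was higher and Cstb lower with groups apart, the separation of their ratio follows and is no further result. Of all other genes tested, 59.8% were lower per read of Cst3 with groups apart.

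Ctsd (chromosome 7, 142375911 to 142388038, minus strand), the aspartic protease of the lysosome, had the smallest edgeR p of the 8 member cathepsins. It stood at 1740, 1897 and 2317 CPM in the controls and at 1439, 1108 and 1105 CPM in the Sept2C111A libraries, with no overlap. The means were 1985 ± 298 and 1217 ± 192 CPM (SD, n = 3 each), 1.63-fold higher in controls. The log2 fold change was -0.71 (SE 0.25, 95% interval -1.31 to -0.10), with an edgeR adjusted p of 0.316 and a DESeq2 adjusted p of 0.0232. edgeR's log2 fold change lay between -0.84 and -0.58 in the 6 fits without a library, and DESeq2 called the gene in 3 of these 6.

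Many lysosomal genes carry the CACGTG box that TFEB and related MiT/TFE factors bind, so the RefSeq promoters (GRCm38.p6, 250 bases before to 50 after a start) were searched for these letters, which read alike on both strands. A promoter was found for 8 of the 10 members, and Ctsb and Cstb had none to search. CACGTG occurred in those of Ctsa, Ctsd and Ctsl, against 8.09% of 27025 genes with a promoter. The longer TCACGTGA, which contains it, occurred in those of Ctsa and Ctsd, against 1.12% of genes. Of the members with the box, Ctsd was called lower by DESeq2, while Ctsa and Ctsl were not called. Cstb, the other called member, had no promoter to search. Whether the box goes with the differences was not tested. Capitals mark the box in 30 bases read 5′ to 3′ on the gene's strand, at chr7:142387908-142387937 for Ctsd, chr2:164833743-164833772 for Ctsa and chr13:64370741-64370770 for Ctsl:
Ctsd: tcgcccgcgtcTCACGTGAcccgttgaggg
Ctsa: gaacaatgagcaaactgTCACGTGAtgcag
Ctsl: gcggcgttagaagcCACGTGctgatctaaa
A match of letters is no evidence of binding, and nothing in these data measured it. The box shown for Ctsd lay 92 to 99 bases before the RefSeq start, that of Ctsa 6 to 13 bases before the downstream of its listed starts, and that of Ctsl 231 to 236 bases before. A second TCACGTGA lay 4 to 11 bases past that start of Ctsa, and Ctsd had a further CACGTG 240 to 245 bases before its start. The gene coordinates given in this text, from GENCODE, begin farther upstream than these RefSeq starts. By those coordinates each stretch shown lies inside its annotated gene.

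Among the elastin-cutting cysteine cathepsins, Ctss (chromosome 3, 95526786 to 95556403, plus strand), an enzyme of antigen-presenting cells that stays active at neutral pH, stood at 221, 378 and 452 CPM in the controls. In the Sept2C111A libraries it stood at 284, 175 and 186 CPM. Control 1 lay below Sept2C111A library 1, so the groups overlapped. The log2 fold change was -0.71 (SE 0.32, 95% interval -1.49 to 0.08), with an edgeR adjusted p of 0.356 and a DESeq2 adjusted p of 0.252.

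Ctsk (chromosome 3, 95499256 to 95509362, plus strand) lies next to Ctss on the same strand and encodes the main collagen-degrading enzyme of osteoclasts. It was at 80.7 and 145 CPM in controls 1 and 2 but at 834 CPM in control 3, and at 182, 167 and 120 CPM in the Sept2C111A libraries. A single library thus held most of the control signal, while control 1 lay below the Sept2C111A libraries and control 2 within their range. The means, 353 ± 417 and 157 ± 32.3 CPM, differed by -1.17 on the log2 scale (SE 0.84, 95% interval -3.21 to 0.87, edgeR adjusted p = 0.497), which turned to 0.48 without control 3. The neighbours did not move alike: Ctsk per read of Ctss was 0.36 and 0.38 in controls 1 and 2, 1.84 in control 3 and 0.64 to 0.96 in Sept2C111A recipients.

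Control 3 also held the highest level of several other osteoclast genes. Acp5, the tartrate-resistant acid phosphatase of osteoclasts and some macrophages, stood at 240.1 CPM there and at 32.3 to 110 CPM in the other 5 libraries. Ocstamp and Dcstamp, which encode membrane proteins needed for osteoclast fusion, stood at 10.1 and 9.69 CPM in control 3 and below 0.8 CPM in each other library. Oscar, an osteoclast receptor, stood at 8.80 CPM against at most 0.684 CPM elsewhere, and Atp6v0d2, an osteoclast proton pump subunit, at 43.9 against 3.85 to 21.8 CPM. Of the 10 listed genes 3 did not follow: Mmp9 was highest in control 1 at 892 CPM, Itgb3 and Tnfrsf11a were highest in Sept2C111A library 2. Nfatc1, a transcription factor of osteoclast formation, was highest in control 3 at 84.0 CPM against 33.5 to 61.8 CPM elsewhere, and Calcr, the calcitonin receptor, was at 0.346 CPM there and at 0 in 4 libraries. The collagen gene Col1a1 was at 22034 CPM in control 3 too, against 2469 to 8748 CPM elsewhere. These genes were singled out after the Ctsk value was seen, and the part of osteoclast-like cells or fibroblasts in it was not tested.

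**Figure D2:**
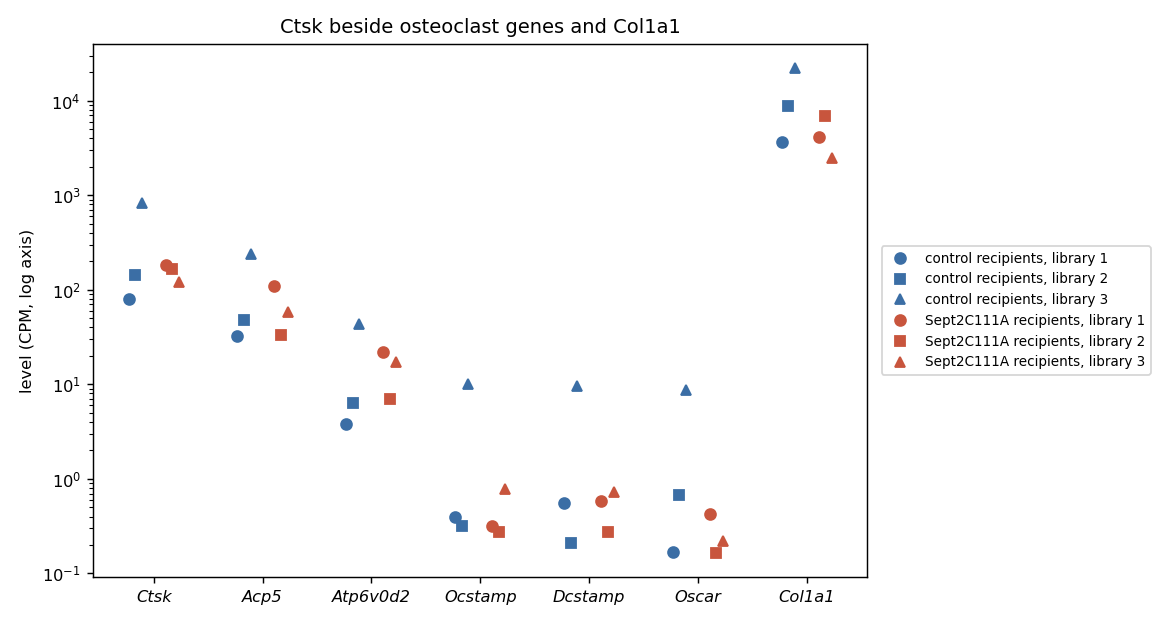
Level of Ctsk, 5 genes of the osteoclast list and Col1a1 in CPM (log axis) in each library, to be compared between libraries within a gene. Control 3 (blue triangle) is the highest library for each of the 7 genes, with Ocstamp, Dcstamp and Oscar at 8.80 to 10.1 CPM there and below 0.8 CPM in all others. The genes beside Ctsk were picked after their values were seen, from those highest in control 3. Mmp9, Itgb3 and Tnfrsf11a, which were highest in other libraries, are not shown.

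Ctsb and Ctsl, the broadly expressed lysosomal endopeptidases, gave small differences. Ctsb (chromosome 14, 63122462 to 63145923, plus strand) had the highest mean count of the members. It stood at 1725, 2337 and 2751 CPM in the controls and 2217, 1697 and 1677 CPM in the Sept2C111A libraries, which overlapped, with a log2 fold change of -0.29 (95% interval -0.99 to 0.42, edgeR adjusted p = 0.634). Ctsl (chromosome 13, 64359337 to 64370890, minus strand) was the one of the 8 member cathepsins with a higher mean in Sept2C111A recipients, at 732, 571 and 657 against 767, 669 and 711 CPM. Its log2 fold change of 0.13 (95% interval -0.32 to 0.58, edgeR adjusted p = 0.731) was the smallest in size after that of Ctsz, and the groups overlapped.

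The exopeptidases were mixed. Ctsc (chromosome 7, 88278085 to 88310888, plus strand), dipeptidyl peptidase 1, which activates the granule serine proteases of leukocytes, stood at 192, 211 and 347 CPM in the controls and 210, 156 and 124 CPM in the Sept2C111A libraries. The groups overlapped through Sept2C111A library 1, with a log2 fold change of -0.62 (95% interval -1.35 to 0.11, edgeR adjusted p = 0.369). Ctsz (chromosome 2, 174427493 to 174439039, minus strand), a carboxypeptidase, was near level at 282, 256 and 347 against 301, 249.9 and 277 CPM (log2 fold change -0.10, 95% interval -0.52 to 0.33). Ctsa (chromosome 2, 164832873 to 164841032, plus strand), which protects lysosomal sialidase and beta-galactosidase, stood at 166, 285 and 356 against 261, 238 and 235 CPM (log2 fold change -0.14, 95% interval -0.82 to 0.55). Both Ctsa and Ctsz had a positive log2 fold change without control 3, at 0.12 and 0.04. Ctsa, Ctsb and Ctsz each overlap genes of the opposite strand (Pltp and Neurl2, Fdft1, and Nelfcd), and reads in the overlaps cannot be assigned without a stated strand setting.

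**Figure D3:**
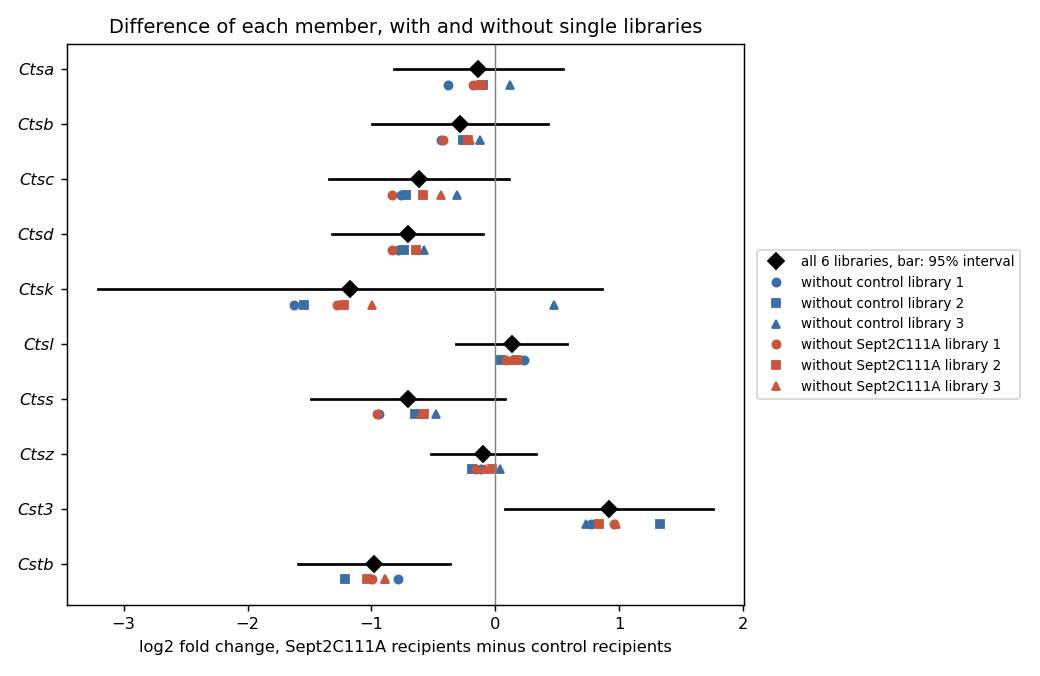
Log2 fold change of each member (Sept2C111A recipients minus control recipients) from edgeR with all 6 libraries (black diamond, bar: 95% interval) and without each library in turn (coloured points below). The intervals of Ctsd, Cst3 and Cstb exclude 0 before adjustment, and Ctsk moves from -1.17 to 0.48 without control 3.

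Control 3 was the highest library for 7 of the 8 cathepsins and Sept2C111A library 3 the lowest for 3. Control 1 was the lowest for Ctsa and Ctsk and lay within the Sept2C111A range for Ctsb, Ctsc, Ctsl, Ctss and Ctsz. Without control 1 the groups lay apart for 8 of the 10 members, 6 lower (Ctsa, Ctsb, Ctsc, Ctsd, Ctss and Cstb) and 2 higher (Ctsl and Cst3), where 17.7% and 17% of all genes did so. Without Sept2C111A library 1 they lay apart for 6 members, beside 15.5% lower and 14.4% higher of all genes. Summed over 16 macrophage markers, of which 12 had a lower mean in Sept2C111A recipients and none was at 0 in any library, levels stood at 3428, 3386 and 4418 CPM in the controls and 3245, 2370 and 2191 CPM in the Sept2C111A libraries. In control 1 that sum rested on Itgam at 985 CPM and Cd14 at 477 CPM, genes that neutrophils and monocytes also express. Without these 2 genes, left out after the values were seen, the sums were 1966, 3274 and 4238 CPM against 3154, 2286 and 2113 CPM. Control 1 was then the lowest and control 3 the highest library. The part of macrophages in the differences of the cathepsins was not tested.

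Set against macrophage markers one by one, the result depended on the marker. Reads of Ctsd per read of a marker were lower in every Sept2C111A library than in any control for 6 of the 16 markers (Csf1r, Mrc1, Cd163, Lyve1, C1qa and C1qc) and overlapped for 10. Of these 6, Mrc1, Cd163 and Lyve1 themselves had a higher mean in Sept2C111A recipients, and Csf1r, C1qa and C1qc a lower one. Ctss gave the same counts as Ctsd, 6 lower and 10 overlapping, and Cstb was lower for 3 markers, higher for 1 and overlapping for 12. The share of all genes with groups apart per read of these markers was not computed. The counts can therefore not be read as particular to the members. With Cd68, a lysosomal protein of macrophages and one of the markers with lower levels in Sept2C111A recipients (log2 fold change -0.92), there were 17.7, 20.0 and 12.6 reads of Ctsd per read of Cd68 in the controls and 16.2, 18.8 and 21.5 in the Sept2C111A libraries. These ratios were added after the values were seen, and no single marker measures the number of macrophages.

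Protease against inhibitor, the 6 cysteine cathepsins summed 3233, 3897 and 5388 CPM in the controls and 3962, 3114 and 3095 CPM in Sept2C111A libraries, so the groups overlapped. Divided by the sum of Cst3 and Cstb, they gave 3.41, 2.35 and 6.12 in the controls against 2.01, 1.36 and 1.6, and the groups lay apart. The means were 3.96 ± 1.94 and 1.66 ± 0.327 (SD, n = 3 each), 2.39-fold higher in controls. Per read of Cst3 alone, 6 of the 8 cathepsins had groups apart, from 2.28-fold for Ctsz to 3.43-fold for Ctsd, and Ctsk and Ctsl overlapped. Of all other genes tested, 59.8% were lower per read of Cst3 with groups apart and 0.145% higher, so the members' share is near that of all genes. All of these ratios share Cst3 as divisor, so they are not separate results, and they are given with no test because the members were chosen with results known.

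**Figure D4:**
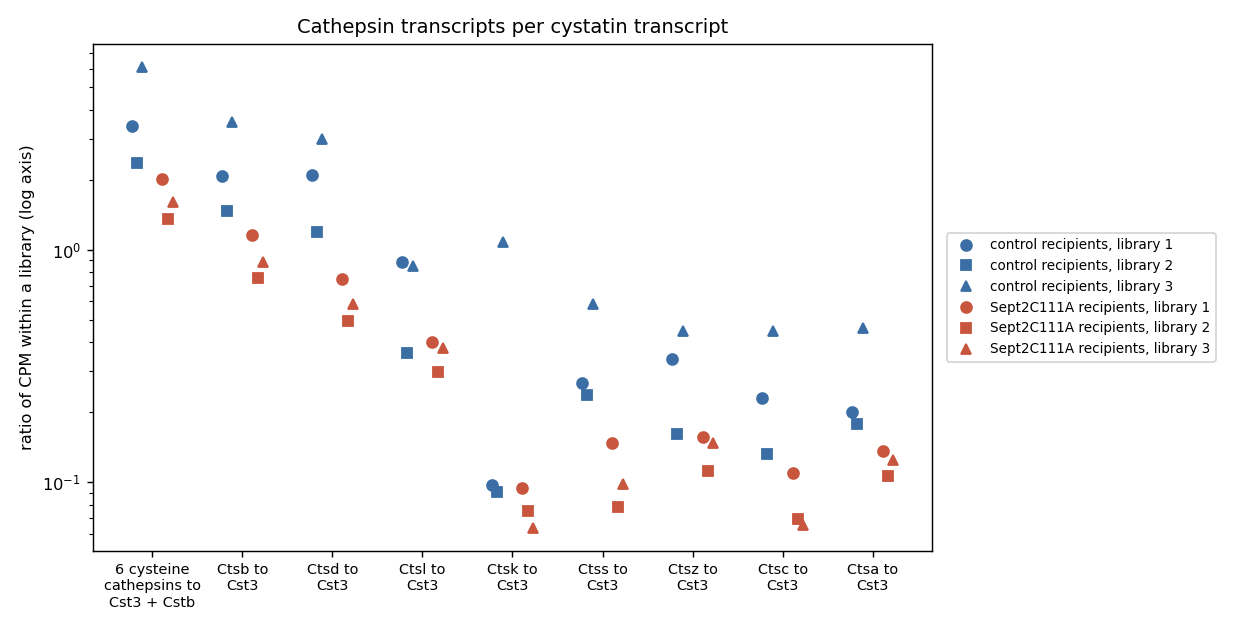
Ratio of cathepsin to cystatin reads within each library (CPM over CPM, log axis), for 6 summed cysteine cathepsins over Cst3 plus Cstb and for each cathepsin over Cst3. For the summed ratio the controls stand at 2.35 to 6.12 and the Sept2C111A libraries at 1.36 to 2.01, while for Ctsk and Ctsl control 2 falls among the Sept2C111A libraries.

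Genes were ranked per kilobase of summed exons, so their order depends on the annotated length. On this scale Ctsd and Cst3 led in controls at 844 ± 127 and 842 ± 362 CPM per kb (SD, n = 3), which did not differ beyond their spread. Ctsb followed at 375 ± 85.3, then Ctss at 258 ± 86.7, Ctsk at 233 ± 276, Ctsz at 205 ± 32.8 and Cstb at 158 ± 49.2 CPM per kb, neighbours within their spread. Ctsl at 101 ± 12.5, Ctsa at 57.1 ± 20.4 and Ctsc at 43.0 ± 14.6 CPM per kb closed the order. In Sept2C111A recipients Cst3 stood alone at the top, at 1592 ± 152 CPM per kb, above Ctsd at 518 ± 81.7 and Ctsb at 308 ± 50.6. Ctsz, Ctss, Ctsl, Ctsk and Cstb lay between 192 and 80.3, and Ctsa and Ctsc were lowest at 51.9 ± 3.05 and 28.1 ± 7.5 CPM per kb. With the longest transcript as length, Cst3 was already first in controls, at 1240 CPM per kb, and Ctsc at 77.6 lay above Ctsa at 73.8. Summed exons came to 5808 bases for Ctsc, against 3220 in its longest transcript. The counts are per gene, so the length of the transcripts present is not known, and the order holds only for the lengths used.

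Of the cathepsins outside the 10, Ctsf, a cysteine cathepsin, stood at 34.7, 60.9 and 43.5 CPM in controls and 79.9, 78.8 and 83.4 CPM in Sept2C111A libraries, a difference of 0.80 on the log2 scale (SE 0.21, edgeR adjusted p = 0.316, DESeq2 adjusted p = 0.0501). Its direction was opposite to that of most of the family. Ctse, an aspartic protease of immune and epithelial cells, was at 3.57, 0.789 and 0.791 against 0.315, 0.166 and 0.167 CPM. DESeq2 called it lower (adjusted p = 0.0399), a call kept in 2 of 6 fits with a library left out. Its mean count was only 17.8, and it passed edgeR's filter on low counts through the controls alone. Ctso gave a log2 fold change of 0.37 (edgeR adjusted p = 0.373). Of the 15 listed cystatins and kindred proteins with a row, 6 were tested and none was called by edgeR or DESeq2, Kng1, Cst6 and Cst7 having the smallest p. Stfa2l1, a stefin below the filter, had 268 reads in control 1, 32 in control 3 and at most 4 in each other library. The stefins are a family of near-identical copies, so the reads of any one of them are uncertain.

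The machinery around the cathepsins gave no list-wide direction except among lysosomal membrane proteins. Of 25 such genes, 23 had a lower mean in Sept2C111A recipients (median log2 fold change -0.22), where 49.9% of all genes tested were lower. But 0 passed edgeR's adjusted test, and 6 were lower at an unadjusted edgeR p under 0.05, beside 8.83% of all genes. DESeq2 called 2 of them lower, beside 2.89% of all genes. These were Laptm5, a lysosomal protein of blood cells, at 369, 209 and 334 against 169, 128 and 107 CPM (log2 fold change -1.17, DESeq2 adjusted p = 0.00874), and Slc11a1, a metal transporter of phagocyte lysosomes, at 210, 51.5 and 83.2 against 40.0, 27.3 and 23.6 CPM (log2 fold change -1.92, DESeq2 adjusted p = 0.0157). Both are genes of blood-derived cells and were highest in control 1, and with a library left out DESeq2 kept the call in 2 of 6 fits for Laptm5 and 3 of 6 for Slc11a1. Npc1, the cholesterol exporter of late endosomes, had a log2 fold change of -0.60 (edgeR adjusted p = 0.316).

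Soluble lysosomal hydrolases were evenly split, 17 of 33 lower and 16 higher with a median log2 fold change of -0.06. DESeq2 called 1 of the 33, beside 2.89% of all genes called lower and 0.985% called higher. This was Gla, alpha-galactosidase, at 25.6, 20.2 and 31.1 against 17.1, 13.6 and 14.2 CPM (DESeq2 adjusted p = 0.042). The call was kept in 1 of 6 fits with a library left out. Neu1, the sialidase that Ctsa protects, and Ids, iduronate sulfatase, had log2 fold changes of -0.36 and 0.56 and no call by either test. Of 11 processing and sorting genes, 7 were lower and 4 higher, and DESeq2 called 0 and edgeR 0. At an unadjusted edgeR p under 0.05, 1 was lower and 2 were higher, beside 8.83% and 6.17% of all genes. Lgmn, the asparaginyl endopeptidase that trims cathepsin precursors, stood at 343, 438 and 598 against 283, 282 and 202 CPM, groups apart (log2 fold change -0.85, edgeR adjusted p = 0.316, DESeq2 adjusted p = 0.0671). Sort1, a sorting receptor, and Gnptg, a subunit of the enzyme that makes the mannose 6-phosphate tag, had log2 fold changes of 0.70 and 0.39.

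Of the 4 MiT/TFE factors, Tfec, the member expressed in macrophages and osteoclasts, was called lower by DESeq2 (adjusted p = 0.00342). It stood at 19.9, 7.10 and 13.5 CPM in controls and 3.89, 4.31 and 3.12 CPM in Sept2C111A libraries, or -1.84 on the log2 scale (SE 0.40, edgeR adjusted p = 0.316), and DESeq2 called it in 5 of 6 fits with a library left out. Tfe3 and Tfeb had log2 fold changes of -0.34 and 0.19 with overlapping groups.

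**Figure D5:**
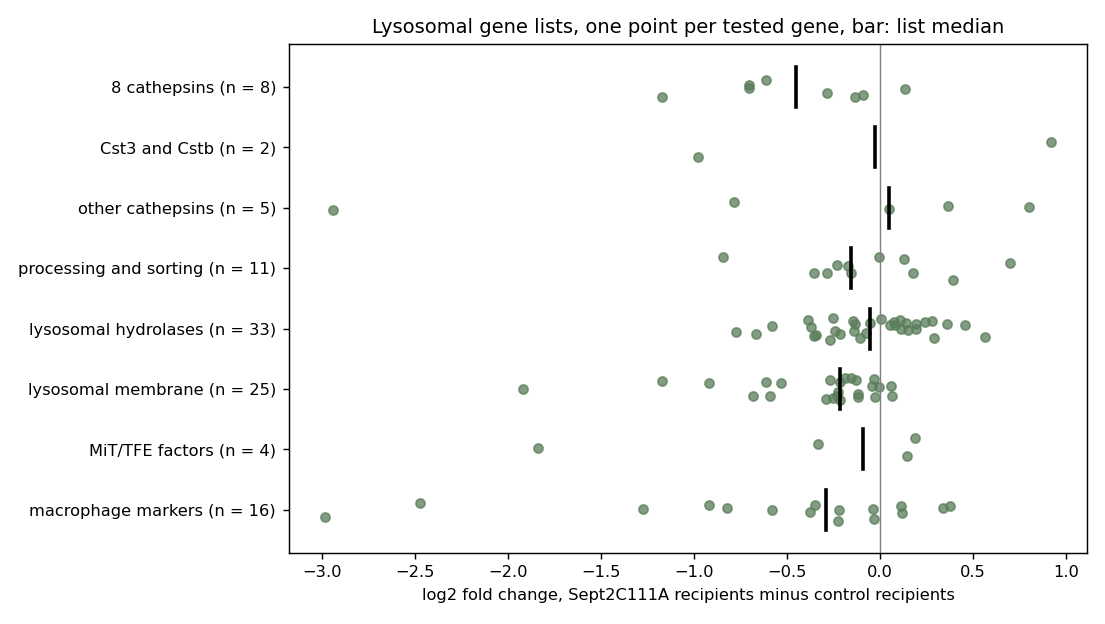
Log2 fold change (Sept2C111A recipients minus control recipients, edgeR) of each tested gene in the lists around the cathepsins, 1 point per gene, with the list median as a bar (vertical position within a row is arbitrary). The lysosomal membrane list has 23 of 25 points below 0, and the 33 soluble hydrolases lie on both sides of 0.

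Among 12751 other genes with a mean count of at least 50, those whose log2 CPM over the 6 libraries was most like that of Ctsd were Slc36a1, a lysosomal amino acid exporter (Pearson r = 0.991), Plxnc1, a semaphorin receptor (0.989), and Gng2, a G protein subunit (0.987). Most like Cst3 were Tsnax, Csnk1g2 and Thra, a thyroid hormone receptor (0.994, 0.993 and 0.993). With 6 points and so many genes searched, high values arise readily, and they describe these libraries only. Slc36a1 stood at 44.1, 45.1 and 49.9 against 37.4, 31.1 and 32.8 CPM, a smaller difference than that of Ctsd.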

How the data were processed

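Per the submitters' processing notes, Bowtie2, RSEM 1.3.1, DESeq2 1.4.5 and the build mm10 were used; for annotation, filters and strand the answer is: not given in the sources used here. Per the labels' protocols, polyadenylated RNA was enriched with oligo(dT). The authors deposited expected counts per gene, 1 file per library, not normalised; 34.6% to 35.9% of values per library are fractional because reads shared between genes are divided.

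Expected counts were rounded and fitted in R 4.3.3 with edgeR 4.0.16 (filterByExpr with a minimum count of 10, TMM scaling, two-sided quasi-likelihood F test, group as factor, Benjamini-Hochberg over 14466 genes, threshold 0.05). CPM use TMM-scaled totals, SE comes from fold change and F. DESeq2 1.42.0 ran on all rows with default settings, except that its threshold for adjusted p was set to 0.05. limma 3.58.1 voom with quality weights was another alternative. The scripts were tested on simulated data. Replicate libraries differed far beyond sampling noise (chi-square per degree of freedom 51.8 to 252). Coordinates and exon lengths are from GENCODE vM21. The heading inside 1 Sept2C111A table bears a different number from its GEO sample, whose label was followed. Nothing says that the samples of a group come from separate animals, so p-values measure only the spread between these samples, which may be technical.

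The members and the 217 entries of the gene lists (213 with a row) were chosen with earlier results of these data known. Named genes are the 10 members, the 3 of smallest edgeR p per pathway list, and the 3 genes most like Ctsd and Cst3. The rule also names the 2 most abundant genes of each cell type list, of which Acta2, Mmp9, Itgb3 and Col1a1 are given and the rest are left out for length; others were chosen after their values were seen.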

Additional observations from a re-analysis of the deposited data

How the results depend on the processing

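With edgeR, 0 members passed under any of the 3 other scalings, without the filter, with any library left out or with the replicate block, and limma-voom called 0 as well. DESeq2 called 2 members (Ctsd and Cstb) and 570 genes. With 1 library left out, fits added after seeing the data, DESeq2 called 0 to 3 members and 116 to 1767 genes: 330 without control 1, 1767 without control 2, 345 without control 3, and 241, 640 and 116 without Sept2C111A libraries 1, 2 and 3. Members called were 1 without control 1, 3 without control 2 and 1 without Sept2C111A library 1. Log2 fold changes turned sign for Ctsk (range -1.63 to 0.48 with 1 library left out, 0.11 without controls 1 and 3), Ctsa (-0.38 to 0.12) and Ctsz (-0.188 to 0.039, 0.11 without controls 1 and 3, 0.038 by limma-voom). Members with groups apart numbered 3, and 3 to 8 with 1 library left out, where fewer samples make separation easier. The 8 were found without control 1, beside 17.7% lower and 17% higher of all genes. The members' median of -0.45 ranged from -0.627 to -0.043 with 1 library left out. Cst3 per kb in controls was 1240 CPM with its longest transcript in place of 842 with all exons. Genes at an unadjusted edgeR p under 0.05 numbered 2170, and 1130 without Sept2C111A library 1, 868 without Sept2C111A library 3 and 525 without controls 1 and 3. The cause of the shifts was not tested. Leaving out controls 1 and 3 together, chosen after seeing the data, leaves 1 control, which is assumed to vary like the other group.

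Sample numbers of the labels did not pair the libraries: same-numbered deviations correlated at 0.01, 0.15 and -0.17. With the replicate block, 0 members passed and the log2 fold changes of Ctsk and Cst3 were -0.37 and 1.00.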

Other observations

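Outside the gene lists, Cstdc4, a row of the stefin family, had 1008 reads in control 1, 22.5 in control 3 and at most 4.63 in each other library (56.3, 1.14 and at most 0.263 CPM). Csta2 had 81.3 reads in control 1 and at most 6.48 elsewhere. Neutrophil genes were also highest in control 1, where Csf3r stood at 1033 CPM against 9.39 to 111 CPM elsewhere, and their part in the stefin reads was not tested. Cstb, the stefin gene expressed in many cell types, ranged over only 42.8 to 118 CPM.

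Elastic fibre genes, substrates of the elastin-cutting cathepsins and their partners, gave differences in both directions. Of 15 genes 10 were lower and 5 higher, with a median log2 fold change of -0.24. Eln itself ranged from 8998 to 14720 CPM in controls and from 2793 to 18631 CPM in Sept2C111A libraries, so the wider spread was within the Sept2C111A group. Ltbp4, which guides elastic fibre assembly, stood at 615, 775 and 448 CPM in controls and 1128, 1038 and 1164 CPM in Sept2C111A libraries. It was the one gene of the 15 that DESeq2 called (log2 fold change 0.86), beside 0.985% of all genes called higher. The call was kept in 2 of 6 fits with a library left out.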
